A study of Mus musculus with 16 samples.

Results

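The genes described here are the 10 that code for the core enzymes and regulators of polyamine synthesis and catabolism: Odc1, Amd1, Srm, Sms, Sat1, Smox, Paox, Oaz1, Oaz2 and Azin1. They were taken by name, 10 of 22612 genes with counts, and each gene was represented by 1 of its transcripts, the one with the most ribosome footprints. Polyamines (putrescine, spermidine and spermine) are small, positively charged metabolites that bind nucleic acids and that growing cells need. Ornithine decarboxylase makes putrescine from ornithine, and spermidine synthase and spermine synthase then add aminopropyl groups that come from decarboxylated S-adenosylmethionine. Polyamines are broken down by oxidation, either of spermine itself or of acetylated polyamines, and spermidine also gives the modified amino acid hypusine of the translation factor eIF5A. N1-acetylspermidine (N1-AcSpd), the agent given to the cells here, is the acetylated form of spermidine that the Sat1 enzyme makes.

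The cells came from organoids of hair follicle stem cells (HFSCs), the epidermal stem cells that renew the hair follicle. Epidermal cells of C57BL/6J mice in telogen, the resting phase of the hair cycle, were kept in 3D-3C culture, which holds a mixture of HFSCs and their progenitors, for 2 weeks and then sorted as α6+CD34- cells (progenitors, CD34neg) and α6+CD34+ cells (HFSCs, CD34pos), where α6 is an integrin of basal epidermal cells and CD34 a surface marker of HFSCs. Organoids were left untreated or received N1-AcSpd for 72 h, which gives 4 groups; no allele was altered in any of them, and the sort on CD34 itself defined the cell types. Each group had 2 samples, from 2 donor mice (replicates 1 and 2), and each lysate gave 1 RNA-seq library and 1 Ribo-seq library, in which the RNA fragments protected by ribosomes are sequenced, so there were 16 libraries in all.

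RNA-seq libraries held 21612795 to 31524062 counts on the transcripts kept, and Ribo-seq libraries held 34475 to 268052 footprints, with at least 1 footprint on 6433 to 9840 genes. The sort marker Cd34 was higher in HFSCs by 4.53 on the log2 scale of RNA-seq, and 10 of 10 HFSC markers were higher, 6 of them past the adjusted threshold. Summed levels of markers of fibroblasts, melanocytes, immune and endothelial cells were at most 13.6 CPM (counts scaled to a common library size) in any RNA-seq library, against 33621 to 40256 for 3 basal keratinocyte markers. The difference between the 2 mice, compared across 10177 genes, ran in 1 direction in progenitors, HFSCs and treated progenitors (Pearson r 0.391 to 0.739) and in the other in treated HFSCs (r -0.683 to -0.365), so the RNA-seq libraries labelled treated HFSC 1 and 2 went against their numbers. The main tests reported below were fitted without these numbers. Fits with the donor mouse as a block used them, as labelled unless stated.

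The first bases of 6 coding sequences are shown because footprints are short and these genes differ in how often their sequence occurs in the genome. Each line gives 28 bases from the start of the coding sequence, which is about the length of a ribosome footprint, in lower case with the start codon in capitals (GRCm38, GENCODE M21). Odc1, at chr12:17544794-17551084 on the + strand, starts to be translated at chr12:17547299-17547326. Amd1 lies at chr10:40287458-40302186 on the - strand, with these bases at chr10:40301831-40301858, and Sms at chrX:157443855-157492287 on the - strand, with these bases at chrX:157491926-157491953. Srm lies at chr4:148591503-148594619 on the + strand (chr4:148591620-148591647), Sat1 at chrX:155213132-155216449 on the - strand (chrX:155216141-155216168) and Smox at chr2:131491943-131525172 on the + strand (chr2:131512010-131512037).
Odc1: ATGagcagctttactaaggacgagtttg
Amd1: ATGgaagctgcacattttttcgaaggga
Sms: ATGgcagcagcaagacacagcacgctcg
Srm: ATGgagcctggccccgacggcccagccg
Sat1: ATGgctaaatttaagatccgtccagcca
Smox: ATGcaaagttgtgaatccagtggcgaca
The Odc1 bases occurred at 5 other places in the genome, those of Amd1 at 3 and those of Sms at 3, whereas those of Srm, Sat1 and Smox occurred at 0 other places.

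The coding sequences of the antizymes Oaz1 and Oaz2 are read in 2 frames, and the site where ribosomes shift by 1 base is shown because polyamines act on it. The bases TCCTGAT, in capitals, hold the stop codon TGA of the first frame and were the same in both genes, in windows at chr10:80828280-80828309 for Oaz1 and chr9:65686257-65686286 for Oaz2, both on the + strand. The Oaz2 window belongs to another transcript of the gene than the one counted here.
Oaz1: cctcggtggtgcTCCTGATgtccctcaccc
Oaz2: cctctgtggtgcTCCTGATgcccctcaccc
Oaz1 itself spans chr10:80826656-80829290 and the Oaz2 transcript counted spans chr9:65687806-65689517. Paox lies at chr7:140125657-140137224 on the + strand and Azin1 at chr15:38487427-38519266 on the - strand.

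RNA levels of the 10 genes spanned a wide range. The CPM values use the library size scaled by TMM, a factor that corrects for a few very abundant genes. To compare genes with each other they were divided by the length of the transcript. Per kilobase, Oaz1 was the highest at 345 CPM (mean of 8 RNA-seq libraries, range 310 to 391), which ranked 206th of 14162 genes, and Sat1 followed at 208 CPM (124 to 404). Odc1 at 124 CPM per kilobase (96.6 to 153) and Srm at 123 (91.1 to 153) were next. The range of Sat1 overlapped those of Oaz1, Odc1 and Srm, and those of Odc1 and Srm overlapped each other. Oaz1 lay above Odc1 and Srm in every library. Amd1 stood at 33.1 CPM per kilobase (28.5 to 37.3), below Srm in every library, and its range overlapped that of Smox at 23.0 (14.4 to 30.0), which in turn overlapped that of Oaz2 at 17.5 (14.5 to 19.9). Azin1 at 7.44 (6.31 to 8.70), Paox at 5.02 (4.14 to 6.09) and Sms at 3.54 (2.94 to 3.74) had the lowest levels per kilobase, with ranges that did not overlap. This order holds for the 1 transcript kept per gene. Summed over all transcripts, without regard to length, mean levels were 803 CPM for Oaz1, 191 for Smox, 186 for Odc1 and 64.8 for Srm. Such a sum grows with the number of transcripts counted, which was 14 for Smox, 3 for Odc1 and 1 for Srm. Transcripts of 1 gene could have nearly equal RNA-seq counts, such as 10137 and 10070 for Smox. The sums therefore do not give an order of expression between genes. In these bulk samples a changed share of cells of one type and a changed amount of RNA per cell cannot be told apart.

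**Figure D1:**
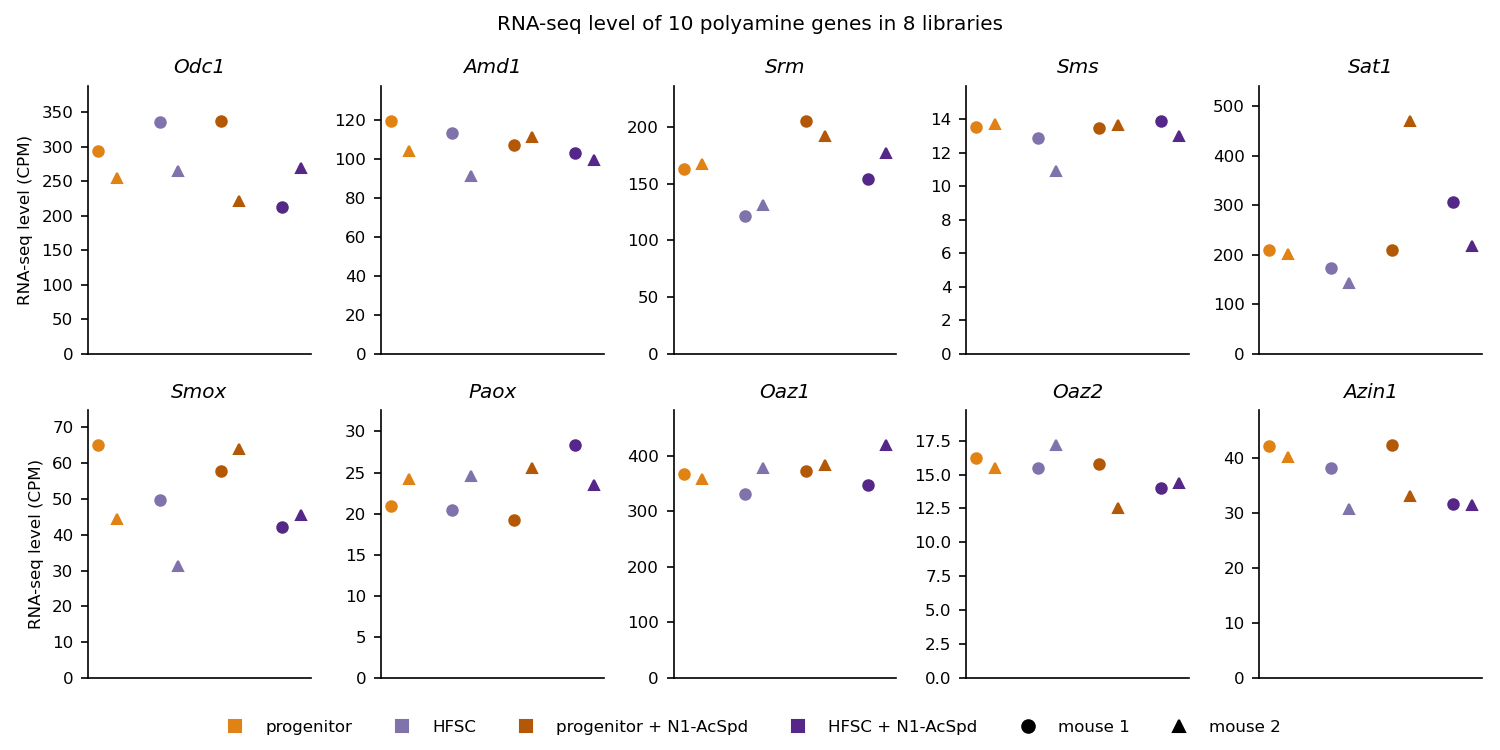
RNA-seq level of each of the 10 genes in each of the 8 libraries (1 panel a gene; y axis from 0, CPM of the TMM-scaled library size), with the groups by colour, circles for mouse 1 and triangles for mouse 2. Oaz1 varied least (1.26-fold between the lowest and the highest library) and Sat1 most (3.27-fold, with 1 treated progenitor library at 470 CPM).

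Odc1 codes for ornithine decarboxylase, the rate-limiting enzyme of the pathway. Its RNA stood at 294 and 256 CPM in progenitors 1 and 2, 336 and 265 in HFSCs, 338 and 221 in treated progenitors and 213 and 270 in treated HFSCs. All 4 groups overlapped, and the library of mouse 1 was the higher one in each group but treated HFSCs. The log2 difference between HFSCs and progenitors, averaged over treatment, was -0.04 (SE 0.150, 95% interval -0.38 to 0.30, adjusted p = 0.922 in edgeR's quasi-likelihood test, adjusted over all genes). With N1-AcSpd, averaged over cell type, it was -0.15 (SE 0.150, interval -0.49 to 0.20, adjusted p = 0.704).

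Srm codes for spermidine synthase, which turns putrescine into spermidine. Its RNA stood at 163 and 167 CPM in progenitors, 122 and 131 in HFSCs, 205 and 192 in treated progenitors and 154 and 177 in treated HFSCs. Both HFSC libraries were below both progenitor libraries without and with N1-AcSpd, and both treated libraries were above both untreated ones in each cell type, while treated HFSCs overlapped untreated progenitors. Averaged over treatment, Srm was lower in HFSCs by a log2 difference of -0.32 (SE 0.0749, interval -0.49 to -0.15), which missed the threshold of 0.05 after adjustment (adjusted p = 0.0518, edgeR, and between 0.00793 and 0.168 over the alternatives run). With N1-AcSpd, averaged over cell type, the log2 difference was 0.33 (SE 0.0749, interval 0.16 to 0.50), or 1.26-fold, and missed it too (adjusted p = 0.0764, between 0.00803 and 0.244 over the alternatives). Within single cell types or treatments the adjusted p of Srm lay between 0.237 and 0.503.

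Sat1 codes for the spermidine/spermine acetyltransferase, whose product was the agent added to the organoids. Its RNA stood at 208.8 and 202 CPM in progenitors, 173 and 144 in HFSCs, 208.9 and 470 in treated progenitors and 307 and 217 in treated HFSCs. Treated libraries were above untreated ones in both cell types, but in progenitors replicate 1 was level with the untreated libraries and replicate 2 alone stood high. That library also had the highest summed level of 6 fibroblast markers, 13.6 CPM against 1.45 in replicate 1 and at most 5.54 in the other libraries, with Lum at 0 in all 8, and their part in the Sat1 value was not tested. Averaged over cell type, the log2 difference with N1-AcSpd was 0.73 (SE 0.228, interval 0.21 to 1.24, adjusted p = 0.170, edgeR), or 1.65-fold. Without replicate 2 of the treated progenitors it was 0.38, and without replicate 1 it was 0.96 and passed the threshold (adjusted p = 0.0392, between that and 0.388 over the alternatives). Between HFSCs and progenitors the log2 difference was -0.37 (SE 0.227, adjusted p = 0.441).

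Smox codes for spermine oxidase, which turns spermine back into spermidine. Its RNA stood at 65.1 and 44.3 CPM in progenitors, 49.8 and 31.2 in HFSCs, 57.9 and 63.8 in treated progenitors and 42.1 and 45.5 in treated HFSCs. Untreated groups overlapped, and treated HFSCs were below treated progenitors. The log2 difference between HFSCs and progenitors was -0.45 (SE 0.164, interval -0.83 to -0.08, adjusted p = 0.185, edgeR), and with N1-AcSpd it was 0.13.

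**Figure D2:**
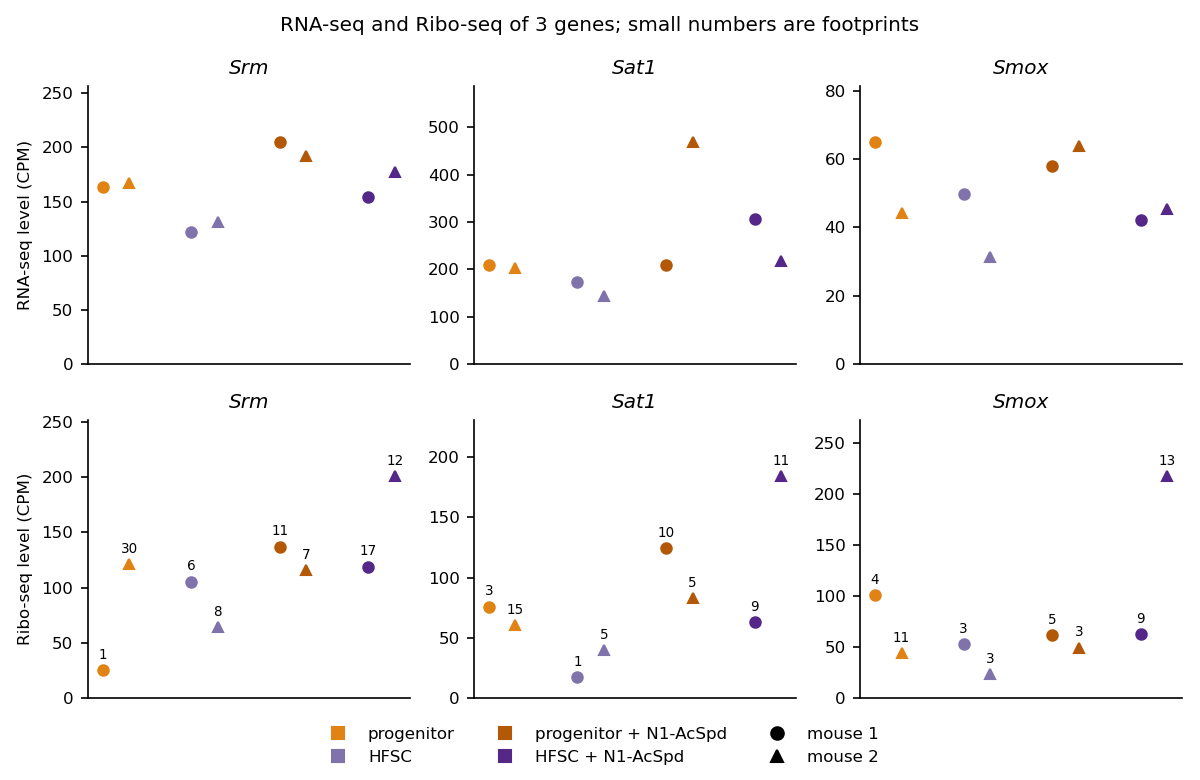
Srm, Sat1 and Smox in each of the 4 groups in RNA-seq and in Ribo-seq (y axes from 0, CPM; each point is a library, circles for mouse 1 and triangles for mouse 2, and the small numbers are footprints). In RNA-seq both treated libraries of Srm lay above both untreated ones in each cell type, and Sat1 was split between the 2 treated progenitor libraries (208.9 and 470 CPM).

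The other 3 enzymes varied less. Amd1, the S-adenosylmethionine decarboxylase that provides the aminopropyl groups, had RNA levels of 91.2 to 120 CPM over the 8 libraries, and Sms, the spermine synthase, of 10.9 to 13.9 CPM. Paox, the peroxisomal oxidase of acetylated polyamines, ranged from 19.3 to 28.4 CPM. Their log2 differences between HFSCs and progenitors were -0.12, -0.10 and 0.10, and with N1-AcSpd they were -0.02, 0.08 and 0.09. Much of the coding sequence of these 3 genes, and of Odc1 and Oaz1, occurs elsewhere in the genome, so how reads were divided with the copies is uncertain.

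The antizymes bind ornithine decarboxylase and send it to the proteasome, and antizyme inhibitor, a relative of the enzyme without its activity, binds antizyme in its place. Oaz1 ranged from 332 to 419 CPM and Oaz2 from 12.5 to 17.2 CPM over the 8 libraries. With N1-AcSpd their log2 differences were 0.09 and -0.18 (adjusted p = 0.475 for Oaz2, edgeR). Azin1 stood at 42.2 and 40.1 CPM in progenitors, 38.3 and 30.7 in HFSCs, 42.4 and 33.1 in treated progenitors and 31.7 and 31.6 in treated HFSCs. HFSCs were below progenitors in both strata, with a log2 difference of -0.25 (SE 0.106, interval -0.50 to -0.01, adjusted p = 0.248).

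Over the 10 genes, 0 passed the adjusted threshold between HFSCs and progenitors, averaged over treatment, in edgeR, where 3.91% of the genes tested did. At an unadjusted p under 0.05, 3 of the 10 genes (Srm, Smox, Azin1) were counted, beside 18.1% of the genes tested. The median log2 difference of the 10 genes was -0.11, with 8 lower and 2 higher in HFSCs, against -0.01 for the genes tested. For N1-AcSpd, averaged over cell type, 0 of the 10 genes passed where 1.64% did, and 2 (Srm, Sat1) had an unadjusted p under 0.05, where 15.6% did. The median with N1-AcSpd was 0.08, with 6 higher and 4 lower. DESeq2 called Srm alone of the 10 genes in both comparisons, where it called 6.68% of all genes between cell types and 4.08% with N1-AcSpd. These fits held no block for the donor mouse. A block with the 2 treated HFSC RNA-seq numbers exchanged was tried after the data had been seen. It called some of the 10 genes in both comparisons, beside 13.7% and 8.86% of all genes, as given under the dependence on processing.

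Groups did not overlap within either treatment, with HFSCs below, for Srm and Azin1, which was also so for 10.1% of the genes, and with HFSCs above for 0 of the 10 genes (9.32% of the genes). Treated libraries were above untreated ones in both cell types for Srm and Sat1 (8.65% of the genes) and below for 0 of the 10 (8.99%). Comparisons within 1 treatment or 1 cell type also gave 0 calls among the 10 genes, and the share of genes called there was 0.148% and 0.745% for HFSCs against progenitors, untreated and treated, and 0.239% and 0.0% for N1-AcSpd in progenitors and HFSCs. Srm alone of the 10 genes had an unadjusted p under 0.05 in each of these 4 comparisons, where 9.58%, 11.2%, 8.87% and 7.73% of the genes had one. The effect of N1-AcSpd differed between the cell types for 0 of the 10 genes, beside 0.0% of the genes tested (0.83% at an unadjusted p under 0.05, and 0 of the 10), and the difference for Sat1 was 0.00 on the log2 scale with an interval of -1.03 to 1.03.

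**Figure D3:**
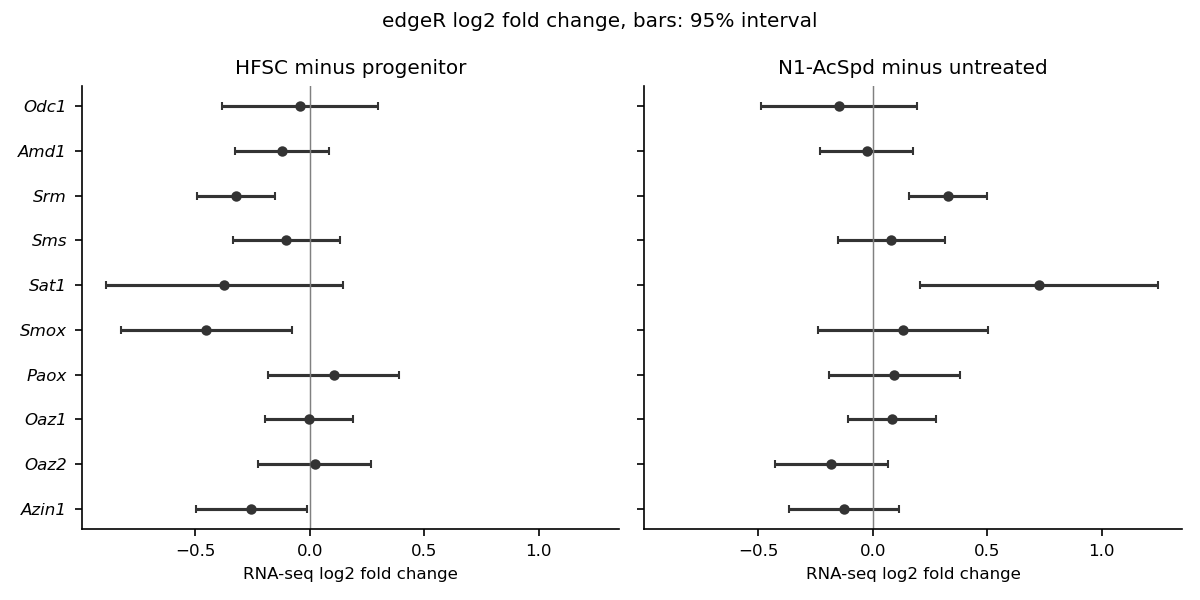
Log2 fold changes in RNA-seq with 95% intervals (x axis) for the 10 genes (y axis), for HFSCs minus progenitors averaged over treatment and for N1-AcSpd minus untreated averaged over cell type. Srm lay at -0.32 and 0.33 with narrow intervals, Sat1 at 0.73 with N1-AcSpd with a wide one, and no gene passed the adjusted threshold.

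Markers of late epidermal differentiation moved along with these comparisons. Their summed level over 5 of 5 genes measured (Krt1, Krt10, Ivl, Lor and Flg, none of them at 0 in all libraries) was 50.1 to 62.8 CPM in progenitors, 27.6 to 27.7 in HFSCs, 137 to 214 in treated progenitors and 49.2 to 69.8 in treated HFSCs. In the averaged comparisons all 5 were lower in HFSCs, 3 of them past the threshold, and all 5 higher with N1-AcSpd, 2 of them past it (Ivl and Krt1, log2 differences 1.16 and 1.64). Within untreated cells 4 of the 5 were lower in HFSCs, and within HFSCs 4 of the 5 were higher with N1-AcSpd. The part of such cells in the values of Srm and Sat1 was not tested. Summed HFSC markers stood at 514 to 611 CPM in progenitors and 1292 to 1629 in HFSCs, and at 378 to 442 and 834 to 1075 with N1-AcSpd. The lower sum in treated HFSCs leans on Krt15. Its RNA stood at 682 and 763 CPM in HFSCs and at 346 and 309 in treated HFSCs. Krt15 alone of the 10 markers had treated libraries below untreated ones in both cell types. Averaged over cell type, 7 of the 10 were lower and 3 higher with N1-AcSpd, so the sums do not show a fall of the whole set.

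Ribosome footprints were few on most of the 10 genes. For Srm the footprint count was 1 and 30 in the libraries of progenitors 1 and 2, 6 and 8 in those of HFSCs, 11 and 7 in treated progenitors and 17 and 12 in treated HFSCs. Sat1 held 3 and 15, 1 and 5, 10 and 5, and 9 and 11 in the same order, and Smox 4 and 11, 3 and 3, 5 and 3, and 9 and 13. Only these 3 genes went above 3 footprints in any library. The abundant Odc1 message held 0 footprints in each library but HFSC 2 (3 footprints) and treated HFSC 1 (2 footprints), and Amd1 and Sms had none in any library. Oaz1 had between 0 and 3, Paox between 0 and 2, Azin1 between 0 and 3 and Oaz2 a single footprint, in progenitor 1.

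These counts were set against the RNA of the same genes over the 8 libraries of each assay, as footprints per 1000 RNA-seq counts. Srm had 92 footprints on 32975 RNA-seq counts, a ratio of 2.79 (95% exact Poisson interval 2.25 to 3.42, for counting error only). Sat1 had 59 on 47657, a ratio of 1.24 (0.942 to 1.60), and Smox 51 on 10070, a ratio of 5.06 (3.77 to 6.66). Smox alone was above the median of 4.17 over 10158 genes with a mean of at least 100 RNA-seq counts, and 9 of the 10 genes were below it. Odc1 had 5 footprints on 56468 RNA-seq counts, a ratio of 0.089 (0.029 to 0.207), and Oaz1 11 on 75492, a ratio of 0.146 (0.073 to 0.261), at percentiles 3.09 and 3.33 of the same genes. Amd1 had 0 footprints on 21646 RNA-seq counts, with an upper end of the same interval of 0.170, and Sms 0 on 2673, with one of 1.38. Azin1 had 6 on 7370 (0.814, interval 0.299 to 1.77), Paox 6 on 4752 (1.26, 0.463 to 2.75) and Oaz2 1 on 3099 (0.323, 0.008 to 1.80).

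At or under 3 footprints in each library were 7 of the 10 genes, beside 19.9% of the 10158 genes. Among the 6 genes with a mean of at least 1000 RNA-seq counts (Odc1, Amd1, Srm, Sat1, Smox and Oaz1) it was 3, beside 5.74% of 4793 genes. The share of 28-base words of the coding sequence that occur once in the genome was lowest for 5 of these 7 genes, higher for Oaz2 though below the median of all genes, and high for Azin1. For Oaz2 only 364 coding bases were compared, since the transcript counted starts inside the coding sequence. The share is given here for each gene. It was 0% for Amd1 and Sms, 8.41% for Oaz1, 12.2% for Paox and 14.2% for Odc1, and 51.9% for Sat1, 59.6% for Oaz2, 77.1% for Srm, 98.9% for Azin1 and 99.0% for Smox. The median over 22404 genes was 98.2%, with 3.66% of the genes under 10%, where 3 of the 10 genes lay.

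The copies were mostly pseudogenes. Odc1 shared at least 20 words with 21 other loci, 20 of them with an annotated pseudogene, Sms with 9, of which Sms-ps held all 1074 words, and Amd1 with 8, of which Amd2 held 97.1%. Oaz1-ps held 91.6% of the words of Oaz1, and a single other locus held 87.6% of those of Paox. Smox and Azin1 shared such a stretch with 0 other loci.

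Genes of the whole table with few unique words also had few footprints. The median was 0.028 footprints per 1000 RNA-seq counts for 244 genes with under 10% unique words, 1.66 for 503 genes with 10% to 50%, 4.195 for 965 with 50% to 90% and 4.44 for 8446 with 90% or more. No footprint was counted for 46.3% of the genes of the lowest class and for 1.15% of the highest. Across the 10158 genes, most of them in the highest class, Spearman's rho between both measures was 0.074; all of these genes come from the same libraries. Azin1, with 98.9% unique words, was at percentile 8.11 of all genes nonetheless. Oaz2, with 59.6%, was at 4.08, a value that rests on 1 footprint. Its counted transcript, kept for that footprint, had 3099 RNA-seq counts, and another transcript had 4350 and 0 footprints. How reads with several matches were counted is not given in the sources used here, and its part in these values was not tested.

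**Figure D4:**
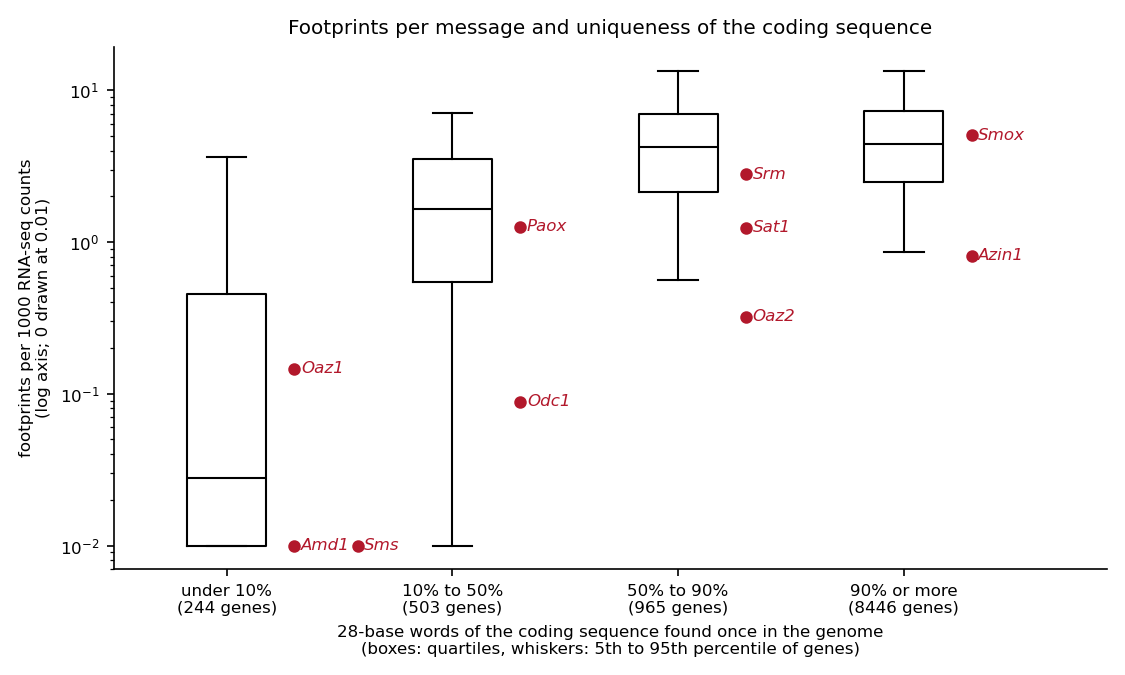
Footprints per 1000 RNA-seq counts over 8 libraries of each assay (y axis, log axis, 0 drawn at 0.01) against the share of 28-base coding words found once in the genome (x axis, 4 classes). Boxes give the quartiles and whiskers the 5th to 95th percentile of all genes; Amd1, Sms and Oaz1 lay in the lowest class and Smox in the highest, above its median of 4.44.

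Changes in footprints could be tested for 4 of the 10 genes that passed the minimum mean of 1 count (Srm, Sat1, Smox and Oaz1, the last at or under 3 footprints in each library), and 0 passed the adjusted threshold in edgeR or DESeq2 in any comparison, where 0.0829% of the genes tested passed with N1-AcSpd and 0.154% between cell types, averaged. In Ribo-seq CPM Sat1 stood at 76.1 and 60.9 in progenitors, 17.6 and 40.1 in HFSCs, 125 and 82.9 in treated progenitors and 63.1 and 184 in treated HFSCs. Both treated libraries were above both untreated ones in each cell type. The share of all genes with this pattern was not counted in Ribo-seq. In progenitors Sat1 rested on 5 footprints (82.9 CPM) in the lower treated library against 3 (76.1 CPM) in an untreated one. Its log2 difference with N1-AcSpd was 1.24 (SE 0.616, interval 0.03 to 2.44, adjusted p = 1, edgeR), and it alone of the 4 had an unadjusted p under 0.05, which 4.85% of the genes had. Srm rested on 25.4 and 122 CPM in progenitors, 106 and 64.1 in HFSCs, 137 and 116 in treated progenitors and 119 and 201 in treated HFSCs. Its log2 difference with N1-AcSpd was 0.68 (SE 0.504), and that of Smox was 0.88 (SE 0.663), both with intervals that held 0. Between HFSCs and progenitors the log2 differences in footprints were 0.03 for Srm, -0.45 for Sat1 and 0.19 for Smox, and 0 of the 4 genes had an unadjusted p under 0.05 (4.14% of the genes). Within single treatments or cell types 0 of the 4 passed, beside 0.0118% and 0.0355% of the genes for HFSCs against progenitors, untreated and treated, 0.0237% and 0.0% for N1-AcSpd in progenitors and HFSCs, and 0.0% for the difference between these effects. Unadjusted p was under 0.05 for Sat1 and Smox with N1-AcSpd in HFSCs (3.54% of the genes) and for 0 of the 4 genes in the others (2.64%, 3.45%, 2.83% and 2.73%).

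Translational efficiency, the footprints of a gene relative to its RNA, was tested as the interaction of assay and group. For N1-AcSpd, averaged over cell type, the log2 difference was 0.46 for Sat1 (SE 0.675, adjusted p = 0.907, edgeR), 0.79 for Smox (SE 0.640, adjusted p = 0.818) and 0.26 for Srm (SE 0.375, adjusted p = 0.903). In 6 comparisons of translational efficiency, of 4 to 6 of the 10 genes each, 0 passed, beside 0.0% of the genes tested, and 0 had an unadjusted p under 0.05. That was so for 7.35% of the genes with N1-AcSpd and 6.01% between cell types, averaged, for 5.23% and 6.25% between untreated and between treated cell types, and for 6.0% and 6.9% with N1-AcSpd in progenitors and HFSCs. The intervals were wide, from -0.95 to 1.86 for Sat1, -0.54 to 2.11 for Smox and -0.51 to 1.04 for Srm.

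The wider pathway was described with 6 lists of 48 genes, of which 41 were tested in RNA-seq. Mat2a, the enzyme that makes S-adenosylmethionine, stood at 75.2 and 78.1 CPM in progenitors, 72.2 and 67.0 in HFSCs, 118 and 139 in treated progenitors and 123 and 116 in treated HFSCs. All 4 treated libraries were above all 4 untreated ones. The log2 difference with N1-AcSpd was 0.76 (SE 0.0788, adjusted p = 0.0075, edgeR), and in progenitors alone it was 0.75 (SE 0.112, adjusted p = 0.0481, and 0.110 with the donor mouse as a block). Ass1, which makes argininosuccinate on the way to arginine, stood at 149 and 137 CPM in progenitors, 93.6 and 78.0 in HFSCs, 183 and 134 in treated progenitors and 78.3 and 121 in treated HFSCs. It was lower in HFSCs in both strata, by a log2 difference of -0.70 (SE 0.154, adjusted p = 0.0426, edgeR, and 0.0753 with the donor mouse as a block), and kept the call only without replicate 2 of the treated progenitors (adjusted p = 0.0394) or of the treated HFSCs (0.0196), with adjusted p up to 0.150 without each other library. Mat2a kept the averaged call without any 1 library (adjusted p 0.0184 to 0.0404) and lost that in progenitors alone without each one (0.0627 to 0.381).

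Apart from these, 0 genes of the lists were called in RNA-seq, where 3.91% of all genes tested were called between cell types and 1.64% with N1-AcSpd. In the methionine cycle and salvage list 8 of 10 genes tested had higher and 2 lower values with N1-AcSpd, with a median log2 difference of 0.12. Of the 10, 1 was called (higher) and 7 had an unadjusted p under 0.05 in either direction, beside 15.6% of all genes. Treated libraries were above untreated ones in both cell types for 5 genes (Mat2a, Mtap, Mri1, Adi1 and Mtrr, beside 8.65% of all genes). They were below for 2 (Mat2b and Apip, beside 8.99%). Mat2b had means of 42.3 CPM in progenitors and 44.4 in HFSCs, and of 33.6 and 38.2 with N1-AcSpd. Mtap, which salvages the methylthioadenosine that polyamine synthesis leaves behind, stood at 56.8 and 59.7 CPM in progenitors, 45.6 and 47.5 in HFSCs, 82.0 and 66.2 in treated progenitors and 59.5 and 63.0 in treated HFSCs, with a log2 difference of 0.37 (adjusted p = 0.0785). Among 9 genes tested for ornithine and arginine supply, 6 had lower and 3 higher values in HFSCs, 1 was called (lower), and the medians were -0.09 between cell types and 0.07 with N1-AcSpd. Polyamine transport had 0 calls among 9 genes tested. Its member Atp13a4, a P5-type ATPase, had few RNA-seq counts, 23 and 10 in progenitors, 8 and 1 in HFSCs, 79 and 36 in treated progenitors and 21 and 49 in treated HFSCs, with a log2 difference of 2.46 with N1-AcSpd (SE 0.505, adjusted p = 0.0537). Cav1, a protein of caveolae, was at -0.34 with N1-AcSpd (adjusted p = 0.0564). Hypusination had 0 calls among 4 genes, with medians of -0.14 between cell types and 0.12 with N1-AcSpd. Factors that act on Odc1 transcription had 0 calls among 5 genes, with Mxd1, an antagonist of Myc, at -0.62 between HFSCs and progenitors (adjusted p = 0.0585), Max, the partner of Myc, at 0.30 with N1-AcSpd (adjusted p = 0.0985), and list medians of 0.01 and 0.28. Azin2, a second antizyme inhibitor, was lower in each of the 4 treated libraries (lowest 9.41 CPM) than in each untreated one (lowest 13.8 CPM), with a log2 difference of -0.66 (adjusted p = 0.0764).

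**Figure D5:**
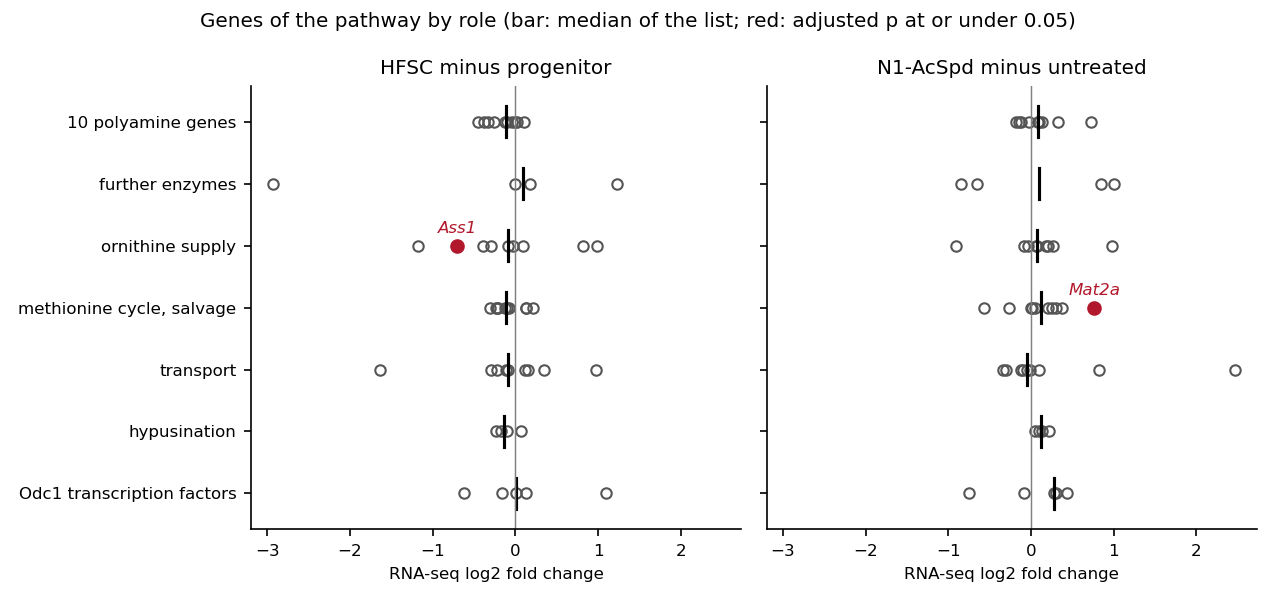
Log2 fold changes in RNA-seq of the genes of 6 pathway lists and of the 10 genes (y axis), for HFSCs minus progenitors and for N1-AcSpd minus untreated (x axes); each point is a gene, the bar is the median of the list and red marks an adjusted p at or under 0.05. Mat2a at 0.76 with N1-AcSpd and Ass1 at -0.70 between cell types were the genes past the adjusted threshold.

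Likeness of pattern was measured as Pearson's r of log2 CPM over the 8 RNA-seq libraries, which share donors and treatments, among 10176 genes. Gle1 (r 0.959), Eif4enif1 (0.944) and Raly (0.939) were the most like Odc1, and Adat3 (0.990) and Zfp335 (0.973) were among the most like Sat1. Sat1 stood at 470 CPM in treated progenitor 2 and at 144 to 307 CPM elsewhere, so its r values lean on that library. Among the 10 genes, Smox and Amd1 were the most alike (0.895), while Paox ran opposite to Odc1 (-0.961) and Oaz2 opposite to Sat1 (-0.931). In each group but treated HFSCs the library numbered 1 was the higher one for Odc1 and the lower one for Paox. Both were the other way round in treated HFSCs, so the r of Paox and Odc1 leans on the difference between the 2 libraries of a group.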

How the data were processed

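The deposited values used here are unscaled read counts per transcript, which the authors made from STAR alignments to mm10 and its transcripts after adapter trimming (flexbar) and a bowtie filter against rRNA and tRNA. The processing notes name STAR 2.7.3a, Bowtie 1.2.3, featureCounts and GRCm38.p5; the counted region, the strand setting and what became of multiply mapped reads are not given in the sources used here. The tables of the authors' own comparisons gave gene names only; their fold changes and p-values were not used.

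One transcript per gene was kept (chosen by footprints, ties by RNA-seq counts). CPM values were counts over the TMM-scaled library size. Tests were made with edgeR 4.0.16 in R 4.3.3 (quasi-likelihood, 4 groups per assay fitted together, mean of at least 1 count, Benjamini-Hochberg over all genes tested, threshold 0.05). SE values are the log2 fold change over the root of the F statistic. Translational efficiency was the interaction of assay and group; on simulated data this test was too lenient at unadjusted p, since both assays share 1 estimate of the spread. DESeq2 1.42.0 was an alternative. Coefficients of variation were 15.0% (RNA-seq) and 34.7% (Ribo-seq). The comparisons averaged over treatment or over cell type use all 8 libraries of an assay, so single comparisons share libraries with them.

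All 10 members are named, and from the 6 lists the called genes and, of the 2 per list with the smallest p in each averaged RNA-seq comparison, some examples. Members and lists were chosen with earlier results of these data known. The labels give the donor mouse, so replicate numbers pair samples of the same animal; the correlation of the differences between the mice was 0.391 to 0.739 among 3 RNA-seq groups, -0.683 to -0.365 with treated HFSCs, and 0.022 to 0.109 in Ribo-seq. The 2 samples per group are cultures of 2 mice. Unique sequence was counted in GRCm38 as 28-base words of the coding sequence, on both strands.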

Additional observations from a re-analysis of the deposited data

Results flagged for a closer look

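For Sms the RNA-seq log2 differences with N1-AcSpd, taken by mouse number, were -0.010 and -0.007 in progenitors, both close to 0, and 0.104 and 0.237 in HFSCs, so their signs differed between the cell types and the mean effects were 0.180 apart. The HFSC values pair libraries by the numbers that the treated HFSC libraries went against. The interaction test of edgeR gave an adjusted p = 1.0.

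For Smox the Ribo-seq log2 differences between HFSCs and progenitors, taken by mouse number, were -0.935 and -0.880 without N1-AcSpd and 0.016 and 2.12 with it, so their signs differed and the mean effects were 1.98 apart. The interaction test of edgeR gave an adjusted p = 1.0, and the counts behind it were 3 to 13 footprints a library.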

How the results depend on the processing

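The count of called genes among the 10 was 0 in all 20 comparisons and kept to it in 273 of 283 alternatives. Many of these had little room for a call. In the main fits translational efficiency and the interaction gave 0 calls over all genes. Ribo-seq gave at most 13 of 8440, and RNA-seq 0 of 14224 for N1-AcSpd in HFSCs. The tally therefore does not show how stable the result for Srm was. Between HFSCs and progenitors the count was 1 (Srm) under DESeq2 (6.68% of all genes called), RLE factors, no minimum count and a mean of at least 10 counts. With N1-AcSpd it was 1 (Srm) under DESeq2 (4.08% of all genes called) and no minimum count and 0 to 1 with single libraries left out. The cause was not tested. With the replicate block for the donor mouse it was 0 in each comparison (adjusted p of Srm 0.0633 and 0.0953), and Ass1 and Mat2a in progenitors lost their calls under it (adjusted p 0.0753 and 0.110). Numbers 1 and 2 were also exchanged between the RNA-seq libraries of treated HFSCs, which was tried after the data had been seen. The block then gave 1 call among the 10 genes for HFSCs against progenitors untreated and 2 for the same averaged over treatment. For N1-AcSpd averaged over cell type it gave 2. Over all genes it gave 752, 1950 and 1260 calls in these 3 comparisons. The main fit without a block gave 21, 556 and 233 there, and the block as labelled 3, 444 and 135. Summed over the transcripts of a gene, mean levels in CPM became 186 for Odc1, 74.4 for Amd1, 64.8 for Srm, 11.5 for Sms, 191 for Smox, 803 for Oaz1, 29.4 for Oaz2 and 54.0 for Azin1. These sums grow with the number of transcripts counted for a gene. With libraries or a mouse left out, the RNA-seq log2 difference between HFSCs and progenitors ranged from -0.21 to 0.17 for Odc1, -0.20 to 0.013 for Sms, -0.80 to 0.17 for Sat1, -0.051 to 0.29 for Paox, -0.10 to 0.10 for Oaz1 (0.0039 with no minimum count) and -0.10 to 0.17 for Oaz2. With N1-AcSpd it ranged from -0.14 to 0.11 for Amd1, -0.20 to 0.54 for Smox and -0.0062 to 0.19 for Paox. In footprints it ranged from -0.18 to 1.31 for Smox with N1-AcSpd, and between cell types from -0.15 to 0.95 for Srm, -1.005 to 0.26 for Sat1 and -0.34 to 0.60 for Smox. Translational efficiency with N1-AcSpd ranged from -0.070 to 1.27 for Srm and -0.031 to 0.996 for Sat1. A mouse left out whole leaves 1 library a group and gave values with no test. Depth limits the footprint values: 3 counts were 0.00112% to 0.00870% of a Ribo-seq library.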

Other observations

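Several of the 10 genes had more than 1 counted transcript. A second Odc1 transcript held 0.474 to 0.497 times the RNA-seq counts of the one kept, and a Sat1 transcript annotated for nonsense-mediated decay held 0.600 to 0.622 times those of the kept one in every library. Sat1, Oaz1 and Azin1 each had another transcript with identical counts. How reads shared between transcripts were counted is not given, so these ratios do not measure the abundance of a single transcript.

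Mat2a, called higher in RNA with N1-AcSpd, held 1, 62, 6, 21, 20, 13, 21 and 17 footprints in progenitors 1 and 2, HFSCs 1 and 2, treated progenitors 1 and 2 and treated HFSCs 1 and 2, while Ass1 held 0 to 9.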
